A study of Mus musculus with 17 samples.

Results

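The mouse chemokine system, the secreted ligands and the cell-surface receptors that position leukocytes, was followed in lungs of mice that drank perfluorooctanoic acid (PFOA), a long-chain perfluoroalkyl substance, or vehicle water. Members were all protein-coding rows of the gene count table whose symbol named a CC, CXC, XC or CX3C chemokine, a receptor for one of these families, an atypical chemokine receptor, or Ccrl2. This gave 58 genes of 31245 in the table: 34 ligands, 19 signalling receptors and 5 atypical receptors. Of these, 55 reached a total of 20 counts over the libraries and entered the tests, while Ccl20, Ccl4 and Ccr1l1 did not. Pf4 and Ppbp, a pair of platelet chemokines with other symbols, lie outside the naming rule and are given with the pathway genes at the end.

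Total RNA of whole lung was sequenced from 17 animals of 3 genotypes. Wildtype (WT) mice were Sv/129 animals purchased from a supplier, PPARα null (KO) mice lack a functional mouse PPARα, and humanized PPARα (KI) mice carry the human receptor in its place. PPARα is the nuclear receptor of fatty acid metabolism that PFOA activates, so the genotypes ask whether a response needs this receptor. KO and KI mice came from heterozygous breeding pairs kept apart from the WT stock, so genotype and source of the animals cannot be told apart. From 6 weeks of age all animals ate a custom diet modelled on what American adults eat, and for 14 weeks they drank water with 0.5% sucrose, either alone (vehicle) or with 6.2 μg/mL PFOA. There were 2 WT vehicle, 3 WT PFOA, 3 KO vehicle, 3 KO PFOA, 3 KI vehicle and 3 KI PFOA libraries, each from 1 animal, named by group and animal number. All 6 KO libraries came from females, whereas WT vehicle held 1 female and 1 male, WT PFOA 1 female and 2 males, and each KI group 2 females and 1 male.

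Chemokines are small secreted proteins that bind heparan sulphate on cell surfaces and signal through G protein-coupled receptors on leukocytes, which then move up the gradient. Homeostatic chemokines are made without any insult and keep immune cells in place or guide them to lymphoid tissue, while inflammatory chemokines are induced by signals such as NF-κB and interferon and recruit neutrophils, monocytes and effector lymphocytes. Atypical receptors bind chemokines without G protein signalling and clear them. In the lung, epithelium, endothelium and fibroblasts supply most homeostatic ligands, and the receptors are carried mainly by resident and circulating leukocytes. In bulk tissue, fewer cells of a type and less RNA per cell cannot be told apart.

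The sequences before the transcription starts of 4 ligands are shown because these genes lie at the ends of the range of levels or differed between genotypes, and their known regulators bind in such stretches. The stretches printed here are the bases just before the RefSeq starts, on the strand of the gene and in build GRCm38.p6 (mm10), without any base that GENCODE M21 counts as exon, and capitals mark the motifs found by a search of both strands. Cxcl15, the most abundant member in these lungs, carries a TATA box (TATAAA) on the plus strand of chr5:90794284-90794533.
Cxcl15: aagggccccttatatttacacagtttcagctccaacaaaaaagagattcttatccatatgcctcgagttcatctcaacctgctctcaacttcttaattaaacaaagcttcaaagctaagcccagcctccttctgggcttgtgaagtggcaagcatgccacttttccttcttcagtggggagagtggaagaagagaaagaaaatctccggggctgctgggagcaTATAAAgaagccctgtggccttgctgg
Cxcl10, an interferon-induced ligand counted near 0 here, lies on the minus strand at chr5:92348890-92349139 and carries 1 interferon-type element (GAAANNGAAA) and 2 κB matches.
Cxcl10: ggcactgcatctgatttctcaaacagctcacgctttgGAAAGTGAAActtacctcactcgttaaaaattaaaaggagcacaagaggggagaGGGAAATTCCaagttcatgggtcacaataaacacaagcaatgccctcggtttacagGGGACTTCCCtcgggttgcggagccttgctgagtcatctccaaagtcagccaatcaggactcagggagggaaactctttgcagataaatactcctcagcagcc
Cxcl2, a neutrophil attractant also near 0, has a κB match on each strand at chr5:90903649-90903870 (plus strand), and these overlap each other.
Cxcl2: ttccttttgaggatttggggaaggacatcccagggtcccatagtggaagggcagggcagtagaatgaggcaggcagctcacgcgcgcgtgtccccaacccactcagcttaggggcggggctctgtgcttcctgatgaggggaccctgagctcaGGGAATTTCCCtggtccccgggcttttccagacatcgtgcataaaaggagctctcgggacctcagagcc
Ccl22, a dendritic cell ligand that was higher in KO- and KI-labelled lungs than in WT, holds AGGTCA at chr8:94745434-94745589 (plus strand). This 1 match is a part of a nuclear receptor element and not a whole one. Other members that differed between genotypes are not printed. Of these, Ccl28 and Cxcr3 held none of the motifs searched, and Xcr1 held a TATA box match and no AGGTCA.
Ccl22: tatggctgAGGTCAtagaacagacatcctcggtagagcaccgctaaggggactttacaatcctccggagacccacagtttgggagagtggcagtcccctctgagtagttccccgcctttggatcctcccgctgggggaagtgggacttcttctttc

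Of the 58 members, 45 had a RefSeq promoter, with 51 windows of 250 bases before the start. Ccl5 was among the 13 without one. A κB match on either strand was found in 10 of the 51 member windows (19.6%) and in 3.9% of all 32851 windows. These belonged to Ackr2, Ccl9, Ccl20, Ccr3, Ccr6, Ccrl2, Cxcl1, Cxcl2, Cxcl3 and Cxcl10. The TATA box was found in 27.5% of member windows against 12.4% of all windows, AGGTCA in 25.5% against 14.0%, and the interferon-type element in 3 member windows (5.88%) against 2.98%. Of the 10 members with a κB match, 6 averaged under 1 CPM in these lungs, as did 15 of all 45 members with a promoter, where CPM is the count relative to the total of the library. The matches are letters in the sequence, and binding was not measured.

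Library totals ranged from 4116118 to 9237356 counts with a median of 7524757, and 3 counts corresponded to 0.325 to 0.729 CPM. Values are CPM scaled by TMM factors, which correct for differences in library composition. A pair of libraries stood apart, WT vehicle 122 and KO vehicle 137, in which protein-coding genes took 65.3% and 61.3% of counts against 74.4% to 80.4% in the other libraries, and ribosomal RNA genes 16.9% and 20.3% against 6.73% to 12.3%. Chemokine members summed to 454 and 572 unscaled CPM in these libraries and to 858 to 1334 in the others. The targeted gene Ppara was counted in every library: 6.13 and 7.21 CPM in WT vehicle, 5.07, 4.39 and 6.94 in WT PFOA, 11.7, 10.3 and 9.17 in KO vehicle, 10.1, 11.3 and 8.82 in KO PFOA, 15.3, 15.3 and 12.7 in KI vehicle and 20.4, 14.9 and 9.08 in KI PFOA. It was not lower in the KO libraries, the log2 fold change against WT being 0.78 (SE 0.19, adjusted p = 0.0362), and the part of the gene removed by the allele was not identified here, so gene-level counts do not check the KO or KI labels and the libraries are called KO- and KI-labelled. Defining genes of lung epithelium were abundant throughout, with 7 alveolar type 2 cell genes summing to 3214 to 10082 CPM, and 4 cardiac muscle genes summed to 170 to 6106 CPM. The source of the cardiac transcripts was not tested.

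Levels differed widely by role (the plot of level per gene length). Compared per kilobase of exon, the highest levels were mostly those of homeostatic ligands, with the myeloid chemokine Ccl6 among them: the mean over 17 libraries was 155 CPM per kb for Cxcl15, a lung epithelial chemokine also called lungkine, 50.6 for Ccl21a, 45.9 for Cxcl14, 30.8 for Ccl6, 15.7 for Cxcl17, 15.1 for Cxcl12, 12.8 for Cxcl16 and 12.4 for the scavenging receptor Ackr2. Cxcl15 was above all other members in each of the 6 group means and made up 34.0% of all members' CPM. Altogether 15 members averaged at least 10 CPM, 23 averaged 1 to 10 CPM and 20 averaged under 1 CPM, and 38 were counted in every library.

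**Figure D1:**
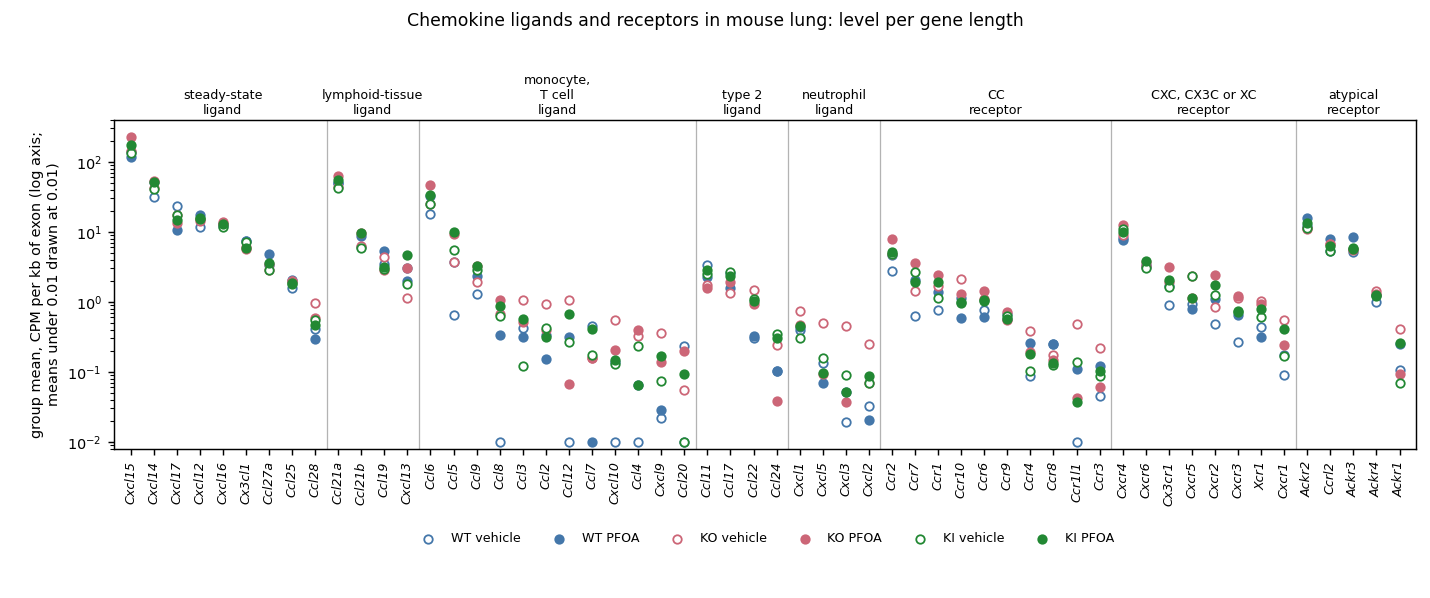
Mean level of 56 of the 57 members with an exon length, in CPM per kb of exon on a log axis (y), by gene (x) and role, with 1 circle for each of the 6 groups (open, vehicle; filled, PFOA). Ligands grouped as homeostatic, such as Cxcl15 (155 CPM per kb over all libraries) and Ccl21a (50.6), lie far above the 4 grouped as neutrophil ligands. Each of these 4 averaged under 1 CPM, and group means under 0.01 are drawn at 0.01.

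The homeostatic ligands were present in every library. Cxcl15 was at 436 and 142 CPM in WT vehicle, 264, 232 and 251 in WT PFOA, 97.9, 385 and 420 in KO vehicle, 436, 520 and 465 in KO PFOA, 219, 367 and 262 in KI vehicle and 246, 576 and 289 in KI PFOA. Its lowest values were in the libraries that stood apart, 122 and 137. PFOA libraries were all above vehicle libraries in KO only, and the genotypes overlapped. Cxcl12, the ligand of Cxcr4 that retains leukocytes and progenitors, was at 125 and 64.2 CPM in WT vehicle, 184, 134 and 107 in WT PFOA, 87.5, 143 and 121 in KO vehicle, 146, 109 and 115 in KO PFOA, 163, 105 and 120 in KI vehicle and 125, 113 and 131 in KI PFOA. Cxcl14, a constitutive epithelial chemokine, was at 77.9 and 37.5 CPM in WT vehicle, 126, 101 and 55.8 in WT PFOA, 31.6, 129 and 130 in KO vehicle, 127, 43.2 and 59.7 in KO PFOA, 63.2, 91.8 and 65.7 in KI vehicle and 87.1, 116 and 82.03 in KI PFOA. For both genes WT vehicle 122 and KO vehicle 137 were the lowest libraries, and PFOA overlapped vehicle in each genotype. The membrane-anchored ligands Cxcl16 and Cx3cl1, which also act as adhesion molecules for cells with Cxcr6 and Cx3cr1, ranged over 23.95 to 50.1 and 18.2 to 39.2 CPM. In detail, Cxcl16 was at 48.4 and 24.7 CPM in WT vehicle, 37.4, 44.1 and 35.1 in WT PFOA, 23.95, 42.8 and 50.1 in KO vehicle, 37.9, 50.1 and 36.3 in KO PFOA, 27.4, 44.04 and 34.6 in KI vehicle and 34.2, 41.2 and 42.9 in KI PFOA. Cx3cl1 was at 35.03 and 22.9 CPM in WT vehicle, 25.5, 39.2 and 22.4 in WT PFOA, 18.2, 26.5 and 21.2 in KO vehicle, 24.2, 22.6 and 23.6 in KO PFOA, 31.04, 25.6 and 28.1 in KI vehicle and 24.1, 21.5 and 23.8 in KI PFOA. PFOA overlapped vehicle for both, except that KI PFOA lay below KI vehicle for Cx3cl1. Cxcl17, a mucosal chemokine of airway epithelium, ran the other way from Cxcl15 in the libraries that stood apart, with 23.6 CPM in WT vehicle 122 and 21.9 in KO vehicle 137 against a highest value of 14.5 elsewhere, and club cell genes, also of airway epithelium, summed to 24856 CPM in WT vehicle 122 and 8052 in KO vehicle 137, against 4690 to 11430 in the other libraries, so that they were raised in 122 and not in 137.

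Lymphoid-tissue ligands were led by Ccl21a, which lymphatic endothelium makes to draw Ccr7+ dendritic cells and T cells, at 53.9 and 33.1 CPM in WT vehicle, 47.8, 46.2 and 36.6 in WT PFOA, 23.5, 50.2 and 40.3 in KO vehicle, 49.2, 64.1 and 49.6 in KO PFOA, 30.2, 45.3 and 34.6 in KI vehicle and 45.2, 48.2 and 50.6 in KI PFOA, with overlap of PFOA and vehicle in each genotype. Ccl21a, Ccl21b and Ccl21d are near-identical copies that share reads, so how counts split among them is uncertain. Ccl19, the other Ccr7 ligand, ranged from 1.76 to 6.45 CPM. Cxcl13, which organises B cell follicles through Cxcr5, was at 5.19 and 1.802 CPM in WT vehicle, 1.77, 3.07 and 2.06 in WT PFOA, 0.461, 1.69 and 1.76 in KO vehicle, 5.45, 1.597 and 3.59 in KO PFOA, 2.87, 0.891 and 2.39 in KI vehicle and 8.56, 3.21 and 4.47 in KI PFOA. The KI PFOA libraries were all above the KI vehicle libraries for this gene, while the other genotypes overlapped.

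Inflammatory ligands were scarce. Of the 12 ligands of monocytes and T cells 9 averaged under 1 CPM. So did all 4 members grouped here as neutrophil ligands, Cxcl1, Cxcl2, Cxcl3 and Cxcl5, a group that leaves out Cxcl15. The exceptions were Ccl6 and Ccl9, mouse myeloid chemokines that act through Ccr1, and Ccl5. Ccl6 was at 51.7 and 11.8 CPM in WT vehicle, 70.3, 40.3 and 62.2 in WT PFOA, 11.98, 57.3 and 67.1 in KO vehicle, 73.6, 98.9 and 77.8 in KO PFOA, 37.2, 51.04 and 45.97 in KI vehicle and 61.1, 79.1 and 41.9 in KI PFOA. Again 122 and 137 were lowest, and PFOA libraries were all above vehicle libraries in KO only. Ccl2, the main monocyte attractant, was at 0.266 and 0.491 CPM in WT vehicle, 0.253, 0 and 0.257 in WT PFOA, 2.07, 0.141 and 1.004 in KO vehicle, 0.531, 0.532 and 0.299 in KO PFOA, 0.637, 0.382 and 0.422 in KI vehicle and 0.228, 0 and 0.838 in KI PFOA. Cxcl10 likewise did not exceed 2.07 CPM. Most of these values lie near or under what 3 counts amount to. Cxcl9, an interferon-induced ligand of Cxcr3 that averaged 0.415 CPM, had a log2 fold change of 2.86 (SE 1.07, adjusted p = 0.223) in KO against WT, not called by edgeR, whereas DESeq2 on the same genes called it at 3.15 (adjusted p = 0.146). Cxcl3 reached 4.15 CPM in KO vehicle 137 and at most 0.509 in any KI library. Of the type 2 ligands, Ccl11, an eotaxin that recruits eosinophils, was at 1.47 and 5.896 CPM in WT vehicle, 1.27, 1.46 and 4.498 in WT PFOA, 2.53, 1.55 and 1.51 in KO vehicle, 1.06, 1.597 and 2.39 in KO PFOA, 2.87, 2.42 and 2.81 in KI vehicle and 3.197, 1.54 and 4.33 in KI PFOA, with overlapping groups. Ccl17 ranged from 0.228 to 2.11 CPM and Ccl24, another eotaxin, from 0 to 0.838.

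Among the signalling receptors, Cxcr4, the receptor of Cxcl12, had the highest level per length at 9.78 CPM per kb, followed by Ccr2, the receptor of classical monocytes, at 5.16 and Cxcr6, found on resident T cells, at 3.404. Cxcr4 was at 15.6 and 14.1 CPM in WT vehicle, 15.7, 10.7 and 15.5 in WT PFOA, 8.52, 23.4 and 16.8 in KO vehicle, 22.99, 26.3 and 18.5 in KO PFOA, 20.2, 17.8 and 21.2 in KI vehicle and 16.9, 19.9 and 16.4 in KI PFOA. Every KI library was above every WT library, as for no other member (1.82%, against 0.943% of all genes), and the log2 fold change was 0.39 (SE 0.20, adjusted p = 0.555). Cxcr6 was at 4.26 and 7.86 CPM in WT vehicle, 5.83, 5.99 and 7.45 in WT PFOA, 5.53, 7.18 and 8.79 in KO vehicle, 6.91, 4.58 and 7.33 in KO PFOA, 7.48, 4.58 and 5.62 in KI vehicle and 7.99, 8.48 and 5.87 in KI PFOA, with overlapping groups. Ccr3, Ccr4, Ccr8 and Ccr1l1 averaged under 1 CPM among the CC receptors and Cxcr1 among the others. The exons of Cxcr5, Cx3cr1, Ccr9, Cxcl10, Cxcl16, Ccl25, Ccl27a, Ackr1 and Ackr4 overlap those of a neighbouring gene in GENCODE M21, and whether the counting used strand is not given in the sources used here, so their counts may hold reads of that neighbour.

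The atypical receptors were present at moderate level except Ackr1. Ackr2, which degrades inflammatory CC chemokines, was at 37.3 and 37.2 CPM in WT vehicle, 52.3, 42.98 and 49.7 in WT PFOA, 26.03, 37.1 and 41.4 in KO vehicle, 37.1, 39.4 and 26.8 in KO PFOA, 34.5, 39.2 and 33.04 in KI vehicle and 43.04, 48.2 and 35.6 in KI PFOA, and only in WT did PFOA lie wholly above vehicle. Ccrl2, which binds chemerin, ranged from 8.84 to 24.1 CPM, and Ackr4, the scavenger of Ccl19, Ccl21 and Ccl25, from 3.28 to 8.52 CPM. Ackr1, which carries chemokines across venular endothelium, was at 0.133 and 0.164 CPM in WT vehicle, 0.634, 0.146 and 0.257 in WT PFOA, 0.2303, 1.13 and 0.377 in KO vehicle, 0.133, 0.106 and 0.1495 in KO PFOA, 0.159, 0.127 and 0 in KI vehicle and 0.571, 0.514 and 0 in KI PFOA. KO PFOA lay below KO vehicle, but Ackr1 had 3 or fewer counts in 13 libraries, so this order rests on few counts and on depth. Ackr3, which removes Cxcl12, was at 20.6 and 13.9 CPM in WT vehicle and 24.7, 22.7 and 37.1 in WT PFOA, groups that did not overlap, while KO vehicle at 12.9, 24.9 and 18.3 CPM overlapped KO PFOA at 18.7, 17.99 and 18.99, and KI vehicle at 21.5, 23.9 and 13.9 overlapped KI PFOA at 19.98, 21.1 and 15.1.

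Compared with WT, lungs of KO-labelled mice had more transcript of the effector lymphocyte ligand Ccl5, the dendritic cell ligand Ccl22, the mucosal ligand Ccl28 and the receptors Xcr1 and Cxcr3. Averaged over vehicle and PFOA, 5 of 55 members (9.09%) passed an adjusted p under 0.2 with a fold change over 2, all higher in KO-labelled lungs, against 2.36% of all 26946 genes tested (1.74% higher). Of the 10 members that passed on adjusted p at any fold (18.2%, against 5.85% of all genes), the others included Ccr1, Ccr2 and Cx3cr1, and 18 members (32.7%) had an unadjusted p under 0.05, against 12.9%. In KI-labelled lungs 2 of 55 members passed (3.64%), Ccl5 and Ccl22, both higher than in WT, against 1.37% of all genes (0.935% higher). At any fold 3 members (5.45%) passed there on adjusted p, against 2.79% of all genes, and 8 (14.5%) had an unadjusted p under 0.05, against 9.65%. Both comparisons use the same 5 WT libraries. The median log2 difference over members was 0.49 in KO and 0.30 in KI, against 0.02 and 0.01 over all genes, and 44 of 55 lay above 0 in KO (53% of all genes) and 40 in KI (51%).

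Ccl5 (ENSMUSG00000035042, chromosome 11, 83525778 to 83530518), a ligand of Ccr1 and Ccr3 made mainly by T and NK cells, was at 1.07 and 0.164 CPM in WT vehicle and 4.44, 2.34 and 3.98 in WT PFOA. It was at 1.38, 4.36 and 5.02 CPM in KO vehicle and 10.4, 8.41 and 7.63 in KO PFOA, and at 7.48, 2.800 and 5.62 CPM in KI vehicle and 6.85, 12.7 and 8.804 in KI PFOA. Within vehicle and within PFOA libraries, every KO- and KI-labelled value was above every WT value, while WT PFOA overlapped KO vehicle and KI vehicle. The log2 fold change was 1.56 (SE 0.37, adjusted p = 0.0273) in KO and 1.85 (SE 0.37, adjusted p = 0.0114) in KI against WT. In vehicle libraries alone it was 2.50 in KO and 2.98 in KI (adjusted p = 0.127 and 0.0567), and in PFOA libraries alone 1.28 and 1.39 (adjusted p = 0.289 and 0.396).

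Ccl22 (ENSMUSG00000031779, chromosome 8, 94745590 to 94751699), a ligand of Ccr4 made by dendritic cells and macrophages, was low throughout. It was at 1.07 and 0.328 CPM in WT vehicle, 0.634, 0.439 and 1.16 in WT PFOA, 2.303, 3.38 and 4.52 in KO vehicle, 1.59, 3.41 and 1.495 in KO PFOA, 0.955, 1.65 and 5.06 in KI vehicle and 0.799, 4.37 and 1.96 in KI PFOA. Every KO library was above every WT library, whereas KI libraries spread from within the WT range to the highest value of all. Its log2 fold change was 1.85 (SE 0.51, adjusted p = 0.0701) in KO and 1.68 (SE 0.51, adjusted p = 0.159) in KI. Ccl28, a ligand of Ccr3 and Ccr10 made by mucosal epithelium, was at 1.47 and 2.46 CPM in WT vehicle, 1.01, 1.75 and 1.54 in WT PFOA, 8.52, 3.38 and 2.13 in KO vehicle, 1.86, 2.56 and 4.04 in KO PFOA, 2.55, 2.04 and 3.37 in KI vehicle and 2.51, 1.93 and 2.38 in KI PFOA. Its value of 8.52 CPM in KO vehicle 137 was the highest, and the log2 fold change of 1.09 (SE 0.35, adjusted p = 0.13) was 0.78 without that library (adjusted p = 0.209).

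**Figure D2:**
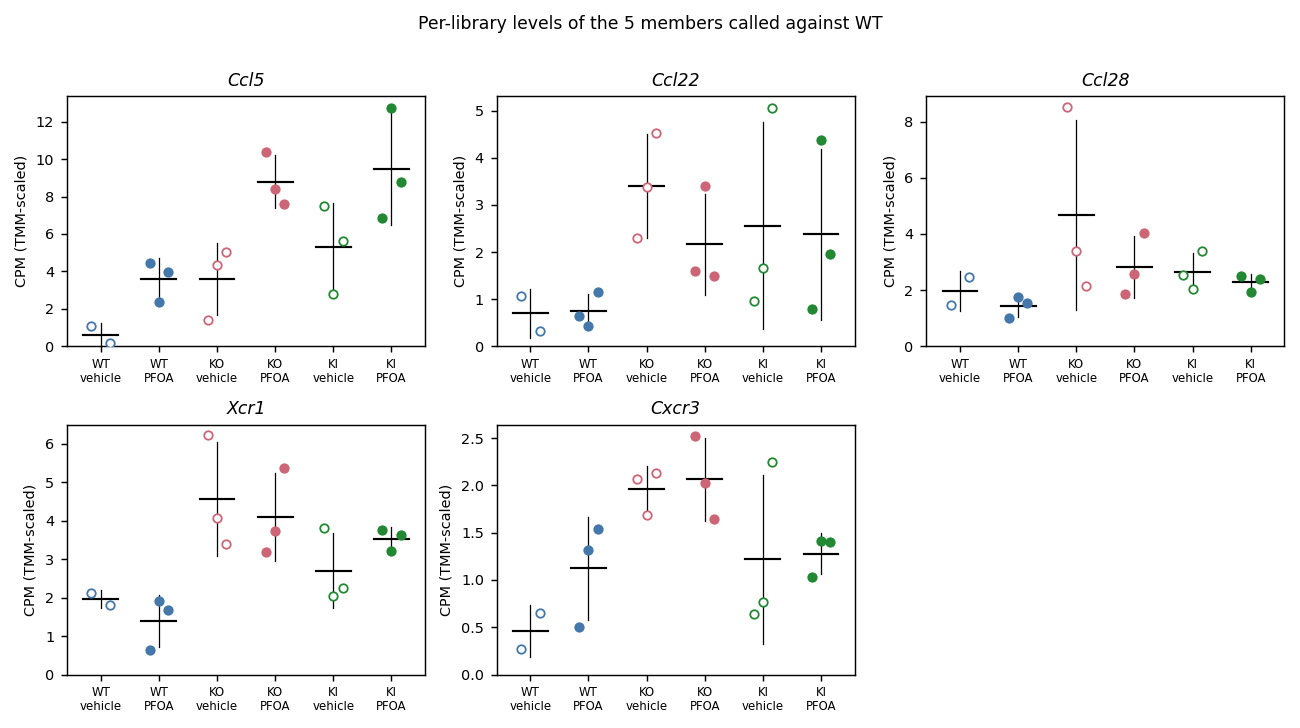
Level in each library (points, TMM-scaled CPM, axis from 0) of the 5 members called against WT, by genotype and treatment; long lines are means and thin lines 1 SD. The 5 WT libraries lie below all 6 KO-labelled libraries for Ccl22, Xcr1 and Cxcr3, and Ccl28 is highest in KO vehicle 137.

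The receptor Xcr1 (ENSMUSG00000060509, chromosome 9, 123852315 to 123862029) marks cross-presenting conventional dendritic cells. It was at 2.13 and 1.802 CPM in WT vehicle, 0.634, 1.901 and 1.67 in WT PFOA, 6.22, 4.08 and 3.39 in KO vehicle, 3.19, 3.73 and 5.38 in KO PFOA, 3.82, 2.04 and 2.25 in KI vehicle and 3.77, 3.21 and 3.63 in KI PFOA. No KO library overlapped the WT libraries, as for 4 members in all (7.27%, against 1.2% of all genes), and the log2 fold change was 1.39 (SE 0.30, adjusted p = 0.0166). In KI-labelled lungs it was 0.94 (SE 0.31, adjusted p = 0.206), with 1 vehicle library within the WT range. Of 7 dendritic cell genes 1, Batf3, was called in KO, and Clec9a had a log2 fold change of -0.21. In KO 5 of the 7 lay above 0 (median 0.30), and 3 were higher at an unadjusted p under 0.05 (edgeR). In KI 4 of the 7 lay above 0 (median 0.46), and 4 were higher at that threshold.

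Cxcr3, the receptor of activated T cells and NK cells for Cxcl9 and Cxcl10, was at 0.266 and 0.655 CPM in WT vehicle, 0.507, 1.32 and 1.54 in WT PFOA, 2.07, 1.69 and 2.13 in KO vehicle, 2.52, 2.02 and 1.64 in KO PFOA, 0.637, 0.764 and 2.25 in KI vehicle and 1.03, 1.41 and 1.397 in KI PFOA. All KO libraries were above all WT libraries, and the log2 fold change was 1.28 (SE 0.43, adjusted p = 0.148) in KO and 0.60 (SE 0.43, adjusted p = 0.776) in KI.

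Most other receptors also lay above WT without a call. Of 18 signalling receptors tested, 17 had a log2 fold change above 0 in KO and 15 in KI, with medians of 0.89 and 0.49, and 11 and 4 had an unadjusted p under 0.05. Ccr1, on monocytes and neutrophils, was at 1.199 to 4.88 CPM in WT and 3.52 to 8.37 in KO, with a log2 fold change of 0.93 (SE 0.26, adjusted p = 0.0797). Ccr2 was at 18.02 to 34.2 CPM in WT and 18.4 to 67.4 in KO, with a log2 fold change of 0.77 (SE 0.27, adjusted p = 0.178). Cx3cr1, on patrolling monocytes and NK cells, was at 1.47 to 8.11 CPM in WT and 6.89 to 16.1 in KO, with a log2 fold change of 0.94 (SE 0.31, adjusted p = 0.144). All 10 tested ligands of monocytes and T cells lay above 0 in KO with a median of 1.32, and all 4 neutrophil ligands with a median of 1.45, but 7 of the 10 and all of the 4 averaged under 1 CPM, so these medians rest on few counts. In contrast, the 9 homeostatic ligands had a median of 0.10 and the 5 lymphoid-tissue ligands also 0.10. Atypical receptors had a median of −0.004.

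**Figure D3:**
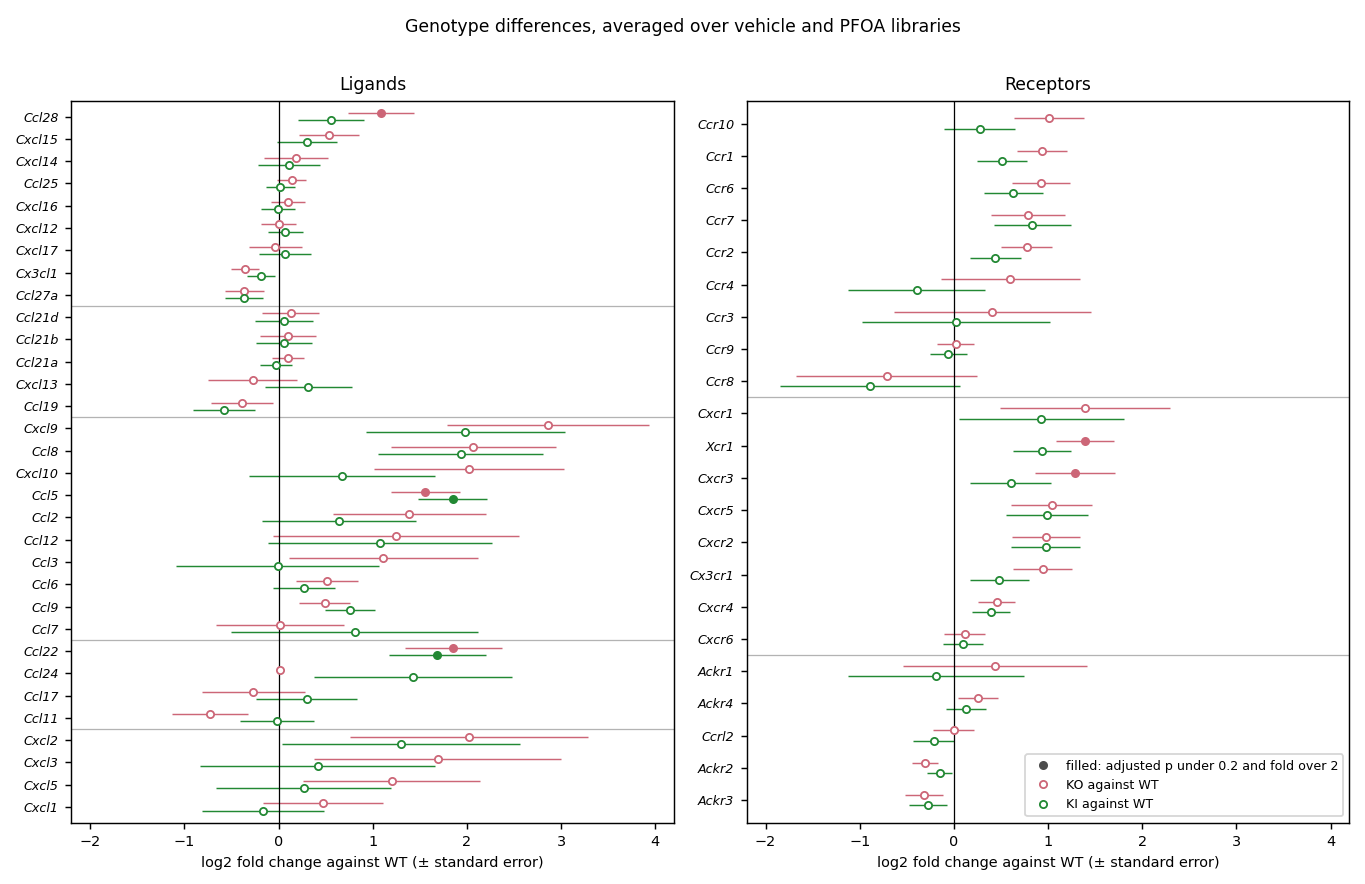
Log2 fold change against WT (x, with standard error) of 54 of the 55 members tested, for KO-labelled (red) and KI-labelled (green) lungs, ligands on the left and receptors on the right in blocks by role; filled points passed adjusted p under 0.2 and fold over 2. Signalling receptors lie mostly to the right of 0 (17 of 18 in KO), the homeostatic ligands in the top block lie close to 0 except Ccl28, and no error bar is drawn for Ccl24 in KO, whose test statistic was too near 0 to give one.

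Most NK and B cell markers were called higher with these members, and few or no T cell, monocyte and neutrophil markers. The 8 NK cell genes summed to 7.33 and 2.95 CPM in WT vehicle, 14.2, 11.7 and 19.9 in WT PFOA, 20.7, 19.98 and 22.4 in KO vehicle, 46.2, 35.8 and 56.1 in KO PFOA, 32.6, 17.7 and 28.8 in KI vehicle and 23.9, 34.6 and 38.2 in KI PFOA. Of the 8, 5 were called higher in KO and the same 5 in KI: Gzma, Klrb1c, Klre1, Ncr1 and Prf1, granule proteins and receptors of NK cells. Ncr1, which defines NK cells, had a log2 fold change of 2.46 (SE 0.41, adjusted p = 0.00191) in KO and 2.27 (SE 0.42, adjusted p = 0.0062) in KI. Its level was 0.3996 and 0 CPM in WT vehicle, 2.03, 1.46 and 2.44 in WT PFOA, 3.46, 5.35 and 3.64 in KO vehicle, 9.43, 5.96 and 11.2 in KO PFOA, 7.16, 3.05 and 5.06 in KI vehicle and 4.11, 4.88 and 7.69 in KI PFOA, lowest in WT vehicle. Of 6 B cell genes 5 were called in KO and in KI, and the list summed to 4.59 to 27.9 CPM in WT, 22.8 to 111 in KO and 14.00 to 141 in KI. By edgeR none of 9 T cell genes was called in either, and 1 of 9 had an unadjusted p under 0.05 in each. All 9 lay above 0 in KO (median 0.41) and 8 in KI (median 0.35). The list summed to 18.3 to 59.05 CPM in WT, 29.7 to 81.9 in KO and 35.8 to 59.7 in KI. Of 8 monocyte genes, Ly6c2 and Plac8 were called higher in KO and Plac8 in KI. In KO 6 of the 8 lay above 0, and 1 was lower at an unadjusted p under 0.05 (edgeR). The monocyte list summed to 1408 to 2651 CPM in WT (median 2451), 723 to 2276 in KO (1923) and 1663 to 2589 in KI (1970). Such a sum follows the most abundant genes of the list. The median log2 fold change over the 8 genes was 0.30 in KO and 0.53 in KI. Of 7 neutrophil genes, S100a9 was called higher in KO and none in KI. In KO all 7 lay above 0 (median 1.01), and 3 had an unadjusted p under 0.05 (edgeR). In KI 6 lay above 0 (median 0.69), and by edgeR 0 of 7 had an unadjusted p under 0.05. The part of these cell types in the differences of Ccl5, Cxcr3, Ccr1, Ccr2, Cx3cr1 and the other members was not tested.

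**Figure D4:**
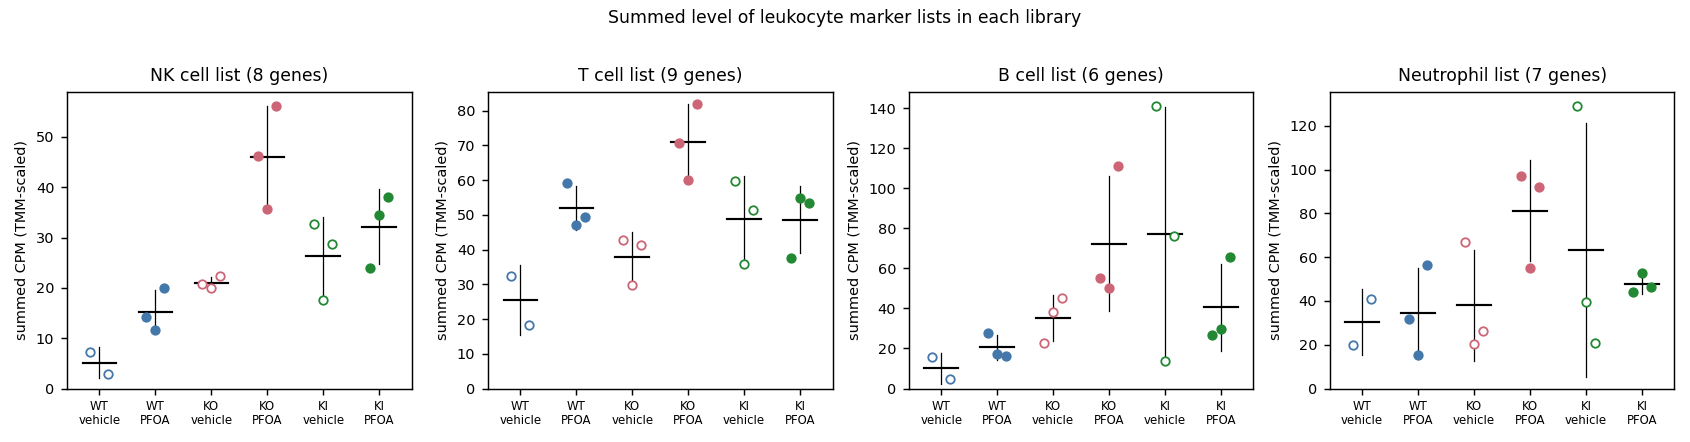
Summed TMM-scaled CPM of 4 leukocyte marker lists in each library (points) by genotype and treatment, with means (long lines) and 1 SD (thin lines), axes from 0. The NK cell list is lowest in the WT vehicle libraries (2.95 and 7.33 CPM) and highest in KO PFOA (35.8 to 56.1), whereas the B cell list reaches 141 CPM in 1 KI vehicle library.

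The calls against WT depended on which libraries were compared. Among females only, KO against WT called 1 member (Cxcr3) and KI against WT none (8 members at an unadjusted p under 0.05, edgeR), with log2 fold changes of Ccl5 of 1.28 and 1.51 (adjusted p = 0.329 and 0.338). With sex as a covariate, 4 members were called in KO (Ccl5, Ccl28, Xcr1 and Ccr1) and 2 in KI (Ccl5 and Xcr1). The log2 fold change of Ccl22 was then 1.19 in KO and 1.26 in KI (adjusted p = 0.442 and 0.372), and that of Cxcr3 in KO 1.41 (adjusted p = 0.339). With the second index number in the column names as a covariate, which all KO PFOA libraries shared and no KO vehicle library had, 1 member (Xcr1) was called in KO, and without WT vehicle 122 and KO vehicle 137 together there were 5 in KO (Ccl5, Ccl22, Xcr1, Ccr1 and Cxcr5) and 2 in KI (Ccl5 and Xcr1). In KO, Cxcr3 was not called without WT vehicle 107 or 122, WT PFOA 50, KO vehicle 149 or KO PFOA 52 or 154, nor Ccl28 without WT vehicle 107, WT PFOA 50, KO vehicle 137 or KO PFOA 155. Ccl5, Ccl22 and Xcr1 remained called in KO when any single library was left out.

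Between KO- and KI-labelled lungs no member was called, against 0.00742% of all genes (edgeR, and DESeq2 also called 0), and 1 of 55 had an unadjusted p under 0.05, against 4.78%. Ccr10, a receptor of Ccl28, was at 6.45, 1.97 and 2.51 CPM in KO vehicle, 2.26, 2.45 and 1.94 in KO PFOA, 2.71, 1.400 and 0.844 in KI vehicle and 1.71, 1.28 and 2.096 in KI PFOA, with its highest value in KO vehicle 137 and overlapping groups. Its log2 difference was 0.73 ± 0.34 (SE). Ccl11 had a log2 difference of -0.71 ± 0.39, Cxcr3 of 0.68 ± 0.38 and Ccl5 of -0.29 ± 0.31. A shortfall at this threshold does not show that the genotypes had the same levels.

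With PFOA, edgeR called no member in WT, KO- or KI-labelled lungs or over the 3 genotypes, and 0% of all genes in each comparison. DESeq2 on the same genes called 1 member, Ccl5, over the 3 genotypes, where it called 16 of all 26946 genes higher and 10 lower. Within genotypes it called 0 members. Of all genes it called 6 higher and 18 lower in WT, 38 and 30 in KO, and 1 and 0 in KI. At an unadjusted p under 0.05, edgeR gave 6 of 55 members in WT (10.9%, against 7.35% of all genes), 8 in KO (14.5%, against 9.79%) and 3 in KI (5.45%, against 2.59%). Over the 3 genotypes there were 13 members (23.6%, against 8.27% of all genes), of which 12 were higher with PFOA (21.8%, against 3.8%), among them Ccl5, Cxcr2, Ccr1, Ccl6, Ccl9, Cx3cr1, Ccr2 and Ccr7. Cxcl17 was lower. Without WT vehicle 122 and KO vehicle 137 this count was 4 of 55 (against 5.57% of all genes), without 122 alone 8 (5.89%), without 137 alone 8 (7.25%), and with the share of protein-coding counts as a covariate also 4 (4.75%). Without WT vehicle 107, which left 122 as the lone WT vehicle library, the median log2 fold change of members in WT was 0.80. Over all genes it was 0.11.

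**Figure D5:**
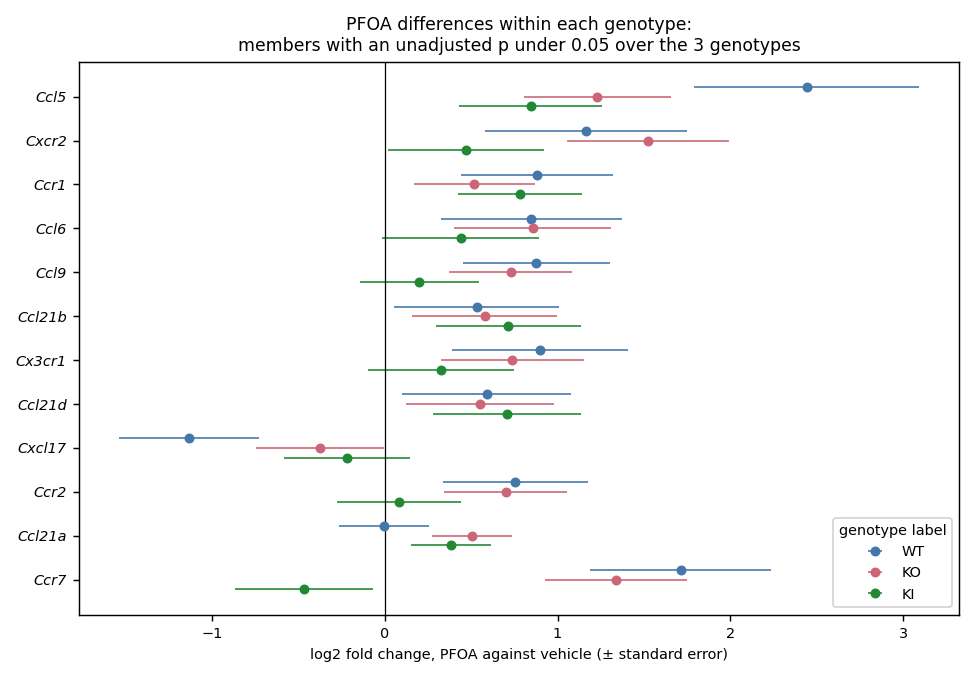
Log2 fold change of PFOA against vehicle (x, with standard error) within WT (blue), KO-labelled (red) and KI-labelled (green) lungs for 12 of the 13 members with an unadjusted p under 0.05 over the 3 genotypes, none of which was called. Ccl5 lies to the right of 0 in each genotype (2.44, 1.23 and 0.84), Cxcl17 to the left, and Ccr7 lies to the right in WT and KO and to the left in KI.

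Ccl5 had the lowest p of all members for PFOA over the 3 genotypes. In WT lungs it averaged 0.615 ± 0.638 CPM (SD) over 2 vehicle libraries and 3.59 ± 1.103 over 3 PFOA libraries. The averages over 3 libraries each were 3.59 ± 1.94 without and 8.800 ± 1.41 with PFOA in KO, and 5.302 ± 2.36 and 9.46 ± 2.99 in KI. PFOA libraries were above vehicle libraries without overlap in WT and KO, whereas the KI groups overlapped. The log2 fold change was 2.44 (SE 0.65, adjusted p = 0.456) in WT, 1.23 (SE 0.43, adjusted p = 0.477) in KO, 0.84 (SE 0.41, adjusted p = 1) in KI and 1.27 (SE 0.28, adjusted p = 0.385) over the genotypes. DESeq2 on the same genes called it over the genotypes at 1.30 (adjusted p = 0.0227), and without WT vehicle 122 and KO vehicle 137 edgeR gave 0.98 (adjusted p = 0.472). Of 8 NK cell genes 6 were higher at an unadjusted p under 0.05 over the genotypes (median log2 fold change 0.86) and 5 in WT, and of 9 T cell genes 6 (median 0.61) and 5, none of them called by edgeR. In KO 4 NK cell genes (median 1.06) and 7 T cell genes (median 1.01) were higher at this threshold. In KI 0 NK cell genes (median 0.25) and 0 T cell genes (median 0.11) were, and 1 T cell gene was lower. The part of NK and T cells in the level of Ccl5 was not tested. The exact permutation test of 3 against 2 libraries cannot give a two-sided p below 0.2, nor that of 3 against 3 below 0.1.

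Receptors of myeloid cells had the next lowest p. Cxcr2, the neutrophil receptor of Cxcl1, Cxcl2 and Cxcl5, was at 1.47 and 1.47 CPM in WT vehicle, 4.31, 1.46 and 4.11 in WT PFOA, 3.46, 1.27 and 3.01 in KO vehicle, 9.57, 7.88 and 4.34 in KO PFOA, 4.46, 3.95 and 2.95 in KI vehicle and 2.28, 6.42 and 7.13 in KI PFOA. Only the KO groups were apart, and the log2 fold change over the genotypes was 1.02 (SE 0.29, adjusted p = 0.436). Ccr1 was at 1.199 and 3.11 CPM in WT vehicle and 3.29, 3.51 and 4.88 in WT PFOA, 5.53, 3.52 and 5.15 in KO vehicle and 6.91, 5.004 and 8.37 in KO PFOA, and 3.34, 2.800 and 3.37 in KI vehicle and 5.14, 7.84 and 3.35 in KI PFOA. Only the WT groups did not overlap, and its log2 fold change was 0.70 (SE 0.21, adjusted p = 0.458). Neutrophil genes were also higher in part: S100a9, a granule protein, had a log2 fold change of 1.68 (SE 0.37, adjusted p = 0.317), 5 of 7 genes of that list had an unadjusted p under 0.05, and none was called. The list summed to 19.8 to 41.1 CPM in WT vehicle, 15.2 to 56.3 in WT PFOA, 20.5 to 67.03 in KO vehicle, 54.8 to 96.9 in KO PFOA, 20.7 to 129 in KI vehicle and 43.95 to 52.7 in KI PFOA. The part of neutrophils in the level of Cxcr2 was not tested.

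Monocyte receptors had smaller differences. Ccr2 was at 19.2 and 18.02 CPM in WT vehicle, 32.7, 34.2 and 27.5 in WT PFOA, 18.4, 42.1 and 37.8 in KO vehicle, 48.1, 46.1 and 67.4 in KO PFOA, 41.7, 12.2 and 44.01 in KI vehicle and 22.1, 39.4 and 41.9 in KI PFOA, apart in WT and KO and overlapping in KI. Cx3cr1 was at 6.53 and 1.47 CPM in WT vehicle, 8.11, 6.87 and 7.97 in WT PFOA, 7.601, 6.89 and 11.1 in KO vehicle, 11.7, 15.1 and 16.1 in KO PFOA, 12.1, 2.800 and 7.03 in KI vehicle and 6.51, 9.25 and 11.5 in KI PFOA. Its lowest value was in WT vehicle 122, and WT and KO groups did not overlap. The log2 fold changes over the genotypes were 0.49 (SE 0.22, adjusted p = 0.573) for Ccr2 and 0.63 (SE 0.25, adjusted p = 0.532) for Cx3cr1. Of 8 monocyte genes none was called with PFOA, while 5 were higher at an unadjusted p under 0.05 over the genotypes (edgeR, median log2 fold change 0.52 over the 8) and 4 in KO (median 1.05), and their part in the values of Ccr2 and Cx3cr1 was not tested. Ccl6 and Ccl9, ligands of Ccr1, had 0.70 ± 0.27 and 0.56 ± 0.21 (SE), and Ccl21a 0.31 ± 0.14.

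Ccr7, which brings dendritic cells and T cells to Ccl19 and Ccl21, had a log2 fold change above 0 in WT and KO and below 0 in KI. It was at 1.47 and 0.983 CPM in WT vehicle and 4.69, 4.53 and 3.08 in WT PFOA, at 3.22, 3.24 and 1.88 in KO vehicle and 5.71, 5.11 and 10.2 in KO PFOA, and at 8.12, 2.29 and 5.48 in KI vehicle and 2.97, 4.11 and 4.33 in KI PFOA. PFOA libraries were all higher in WT and KO, and in KI they lay within the range of the vehicle libraries. The log2 fold change was 1.71 (SE 0.52, adjusted p = 0.482) in WT, 1.34 (SE 0.41, adjusted p = 0.469) in KO and -0.47 (SE 0.40, adjusted p = 1) in KI, and the difference of effects was -2.18 (SE 0.66, adjusted p = 0.999) for KI minus WT and 1.81 (SE 0.57, adjusted p = 0.909) for KO minus KI. Cxcr5, the B cell receptor of Cxcl13, was at 1.47 and 4.75 CPM in WT vehicle, 2.41, 2.49 and 3.08 in WT PFOA, 5.53, 3.24 and 2.64 in KO vehicle, 6.78, 5.86 and 10.8 in KO PFOA, 12.6, 3.05 and 7.31 in KI vehicle and 2.28, 3.85 and 5.17 in KI PFOA. Its difference of effects for KO minus KI was 2.09 (SE 0.67, adjusted p = 0.909). B cell genes were high in the same KI vehicle libraries, with sums of 141, 14.00 and 76.3 CPM in KI vehicle and 26.7, 29.6 and 65.7 in KI PFOA against 22.8, 38.4 and 45.2 in KO vehicle and 55.4, 50.3 and 111 in KO PFOA, and their part in the values of Ccr7 and Cxcr5 was not tested. No member was called in any of the 3 differences of effects, where 0% of all genes were called and DESeq2 called 0 members, and at an unadjusted p under 0.05 edgeR gave 3 members for KO minus WT (against 7.46% of all genes), 2 for KI minus WT (4.58%) and 4 for KO minus KI (5.42%).

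Cxcl17 was the one member with a lower value at an unadjusted p under 0.05 over the genotypes. It was at 11.7 and 23.6 CPM in WT vehicle, 5.96, 7.02 and 11.1 in WT PFOA, 21.9, 7.46 and 10.4 in KO vehicle, 11.6, 7.03 and 11.5 in KO PFOA, 10.98, 14.3 and 14.2 in KI vehicle and 12.1, 7.32 and 14.5 in KI PFOA, without overlap in WT only. The log2 fold change was -1.13 (SE 0.40, adjusted p = 0.544) in WT and -0.54 (SE 0.22, adjusted p = 0.542) over the genotypes. Airway epithelial genes were lower with Cxcl17 in WT, where 3 of 3 club cell genes (median log2 fold change -1.22) and 4 of 4 ciliated cell genes (median -1.07) had an unadjusted p under 0.05 and none was called by edgeR. Over the genotypes this held for 2 of 3 and 4 of 4, and their part in the values of Cxcl17 was not tested. Club cell genes summed to 24856 CPM in WT vehicle 122 and 11430 in 107, against 6750 to 8632 in WT PFOA. Ciliated cell genes summed to 407.5 and 174 CPM in these vehicle libraries, against 111 to 183 in WT PFOA. Cxcl12, Cxcl14, Cxcl15 and Cxcl16, the other abundant ligands, had values over the genotypes of 0.16 ± 0.15, 0.20 ± 0.27, 0.31 ± 0.25 and 0.11 ± 0.15 (SE). PFOA libraries lay wholly above vehicle for 13 of 55 members in WT (23.6%, against 11.6% of all genes), 9 in KO (16.4%, against 6.82%) and 2 in KI (3.64%, against 4.45%), and wholly below for 4 (against 10.9%), 3 (5.99%) and 1 (3.78%). The WT count rests on 2 vehicle libraries, of which 1 stood apart.

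Genes of the wider chemokine pathway, 47 platelet ligands, signalling proteins, adhesion molecules and regulators, were tested with the members. Over the 3 genotypes 0 of 47 were called with PFOA and their median log2 fold change was 0.21, against −0.01 over all genes. At an unadjusted p under 0.05 edgeR gave 16, all higher, where 3.8% of all genes were higher. Within genotypes this count was 4 in WT, 19 in KO and 0 in KI, where the median was 0.001. Of all genes, 7.35% in WT, 9.79% in KO and 2.59% in KI passed this threshold in either direction. In KO-labelled lungs 4 of 47 were called against WT at the thresholds used for the members, and the same 4 in KI, all higher: Pf4, Ppbp, Rgs1 and Rgs18. Of all genes, 1.74% were called higher in KO and 0.935% in KI. Pf4, the platelet chemokine also known as CXCL4, was at 4.13 and 1.31 CPM in WT vehicle, 2.28, 2.63 and 2.31 in WT PFOA, 2.76, 3.38 and 6.03 in KO vehicle, 12.2, 6.601 and 6.43 in KO PFOA, 12.1, 5.47 and 4.499 in KI vehicle and 11.8, 2.57 and 4.33 in KI PFOA. KO PFOA lay wholly above KO vehicle and above WT PFOA, and the full ranges of the genotypes overlapped. The log2 fold change was 1.29 (SE 0.42, adjusted p = 0.137) in KO and 1.43 (SE 0.42, adjusted p = 0.139) in KI. Ppbp, the source of CXCL7, had 1.25 (SE 0.41, adjusted p = 0.144) and 1.55 (SE 0.41, adjusted p = 0.08). Rgs1 and Rgs18, which shorten G protein signalling in leukocytes and platelets, had log2 fold changes in KI of 1.34 and 1.36.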

How the data were processed

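Lung RNA libraries were made by the authors with a stranded pico-input total RNA kit. Per the methods, bases under phred 20 were trimmed, reads were aligned to mm10 with STAR 2.6 in Partek, and expectation maximisation assigned them to genes, so the deposited values are estimated counts per gene. The submitters' notes also name DESeq2 3.5. The annotation release and the strand setting are not given in the sources used here. Counts were rounded and scaled by TMM, and 26946 genes with at least 20 counts in total were tested with the edgeR 4.0.16 quasi-likelihood F-test in R 4.3.3. Calls needed a Benjamini-Hochberg adjusted p under 0.2 over all genes tested and a fold change over 2. PFOA within genotype and differences of effects used 1 coefficient per group. The other comparisons used an additive model of genotype and exposure. SE is the standard error of a log2 fold change and comes from its F statistic.

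The members and lists were chosen with earlier results of these data known. Values in every library are given for called members, the 3 with the smallest p in each PFOA and genotype comparison, the 8 highest per kb and members picked by role. Other members are given by range or in passing, and 1 member is not reported here by name. Alternatives included DESeq2 1.42.0 (closing section). Leaving out WT vehicle 122 and KO vehicle 137 together, and the protein-coding share as a covariate, were added after seeing the data. The test was checked on simulated counts for PFOA in WT, where edgeR recovered 164 of 200 genes changed 4-fold with 19 other calls. DESeq2 recovered 165 with 30 other calls. With nothing changed, edgeR called 0 genes and DESeq2 5. The changed genes all averaged at least 1 CPM and no simulated library stood apart. The recovery therefore does not describe members under 1 CPM or a group that holds WT vehicle 122. Gene IDs and coordinates come from GENCODE M21, which matched 57 of 58 members, and promoters from RefSeq. The smallest chi-square per degree of freedom between replicate libraries was 6.28, so none was counted as a repeat.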

Additional observations from a re-analysis of the deposited data

How the results depend on the processing

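No member was called in KO against KI, in PFOA within KO or KI, or in the 3 differences of effects under any alternative run. For PFOA in WT, where the edgeR count was 0, DESeq2 with default filters called 1 member (Ccl5). Of all 26946 genes that setting called 15 higher and 59 lower. Leaving out any single library outside WT vehicle gave 0 members. Without WT vehicle 107 the lone vehicle library was 122, which stood apart and was assumed to vary like the other groups. The median log2 fold change of members was then 0.80, against 0.38 with all libraries. For PFOA over the genotypes, DESeq2 called 1 member on the same genes and 2 with default filters (Ccl5 and Cxcr2). Of all genes, default filters called 18 higher and 4 lower. Leaving out single libraries gave 0 to 1, the 1 (Ccl5) without KI vehicle 102 or KI PFOA 139. Of all genes, 12 were called higher and 1 lower without 102, and 16 and 19 without 139. For KO against WT (5 called), there was 1 call with the index covariate (Xcr1), 1 in vehicle libraries only (Ccl5), 1 in PFOA libraries only (Xcr1) and 1 in females only (Cxcr3). There were 8 among protein-coding genes only, 2 at an adjusted p under 0.05 (Ccl5 and Xcr1), 10 with no fold threshold, and 3 to 8 without single libraries, 3 without WT PFOA 50 and 8 without KO vehicle 145. For KI against WT (2 called), there were 0 calls in PFOA libraries only, 0 in females only, 1 at an adjusted p under 0.05 (Ccl5) and 1 to 3 without single libraries. Ccl5 was called in all of the latter, and Ccl22 was lost without WT vehicle 107 or 122, WT PFOA 50 or 56, KI vehicle 135 or KI PFOA 80 or 139. The causes were not tested. Of the log2 fold changes in 26 pairs of gene and comparison, 748 kept direction and side of the threshold, 46 lost the call, 9 gained it and 0 changed sign. No paired analysis was possible because the groups share no replicate numbers. Members under 1 CPM (20 of 58) rest on few counts. Of these, Cxcl9 was called in KO against WT by DESeq2, among protein-coding genes only and without WT PFOA 65.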
